A study of Drosophila melanogaster with 3 samples.

Results

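Haemocytes are the blood cells of the Drosophila larva, and 10 genes that mark them or carry out their defence reactions were followed in females, males and metafemales. The genes were taken by name: proPO-A1, CG8193, Dox-A3, lz, Hml, nimC1, nimC2, Pxn, eater and He. Of these, 9 stood in the tables under those names, and Dox-A3 was found by its RefSeq transcript under the name CG42640. They are 10 of 14161 genes in the data, and all 10 were among the 10942 genes whose mean over the groups reached 1 CPM (counts per 1000000 transcript counts). Whole larvae of the third instar were used, kept at 20 degrees. Females carry a pair of X chromosomes, males 1, and metafemales 3 beside a normal set of autosomes. Metafemales are poorly viable. The labels name no strain, allele or age in days for any group. Each group had 3 biological repeats, which the authors combined into 1 value per transcript.

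Larval haemocytes are of 3 kinds. Plasmatocytes are macrophage-like cells that engulf microbes and dying cells and secrete matrix and clotting proteins. Crystal cells store prophenoloxidases, zymogens that are released on wounding and, once cleaved by serine proteases, oxidise phenols on the way to melanin. Lamellocytes are large flat cells that encapsulate parasites and are rare in healthy larvae. Crystal cells are represented here by proPO-A1 (prophenoloxidase 1), CG8193 (prophenoloxidase 2) and lz (lozenge, the Runx transcription factor that specifies them). Dox-A3 (prophenoloxidase 3) is the lamellocyte gene. The plasmatocyte genes are Hml (hemolectin, a large secreted clotting protein), Pxn (peroxidasin, a matrix peroxidase), the phagocytosis receptors nimC1 and eater, and the Nimrod family receptor nimC2. He (hemese) encodes a surface glycoprotein found on all haemocyte types. It is grouped with the plasmatocyte genes here but does not separate the types.

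Since each group has 1 value per gene, no test between groups could be made and no difference below has a replicate check. The 95% intervals hold counting error alone and leave out the variation among larvae. They were computed from library totals of 65.6 to 89.2 M transcript counts in females, 31.6 to 92.4 M in males and 69 to 112 M in metafemales, inferred from the values. The reads carried no molecular identifiers, so they are not independent molecules. Log2 differences are on value + 1 CPM, and plain fold differences are on the values themselves. Higher and lower mean a log2 difference of at least 1 in size, that is 2-fold. In whole larvae, fewer cells of a type and less RNA per cell cannot be told apart.

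In metafemales against females, the 3 prophenoloxidase genes and Hml were higher and nimC2 was lower. The other 5 genes stayed within 2-fold. Thus 4 of 10 genes were higher, where 4.81% of all 10942 genes were, and 1 of 10 was lower, where 10.9% of all genes were. In males against females, 0 of 10 were higher (15.3% of all genes) and 3 of 10 were lower (1.96% of all genes), proPO-A1, CG8193 and Hml. With a mean of at least 10 CPM, only 5.29% of 5959 genes were higher in males and 2.37% lower. Of the 7 members in that range, 0 were higher and 3 lower. The share of genes higher in males thus depends on level, and 0 of 10 is not read as a lack of such members. The median over the 10 genes was 0.50 (log2) in metafemales against females and -0.76 in males against females. The medians of all genes were -0.22 and -0.04. Both comparisons use the same female values.

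**Figure D1:**
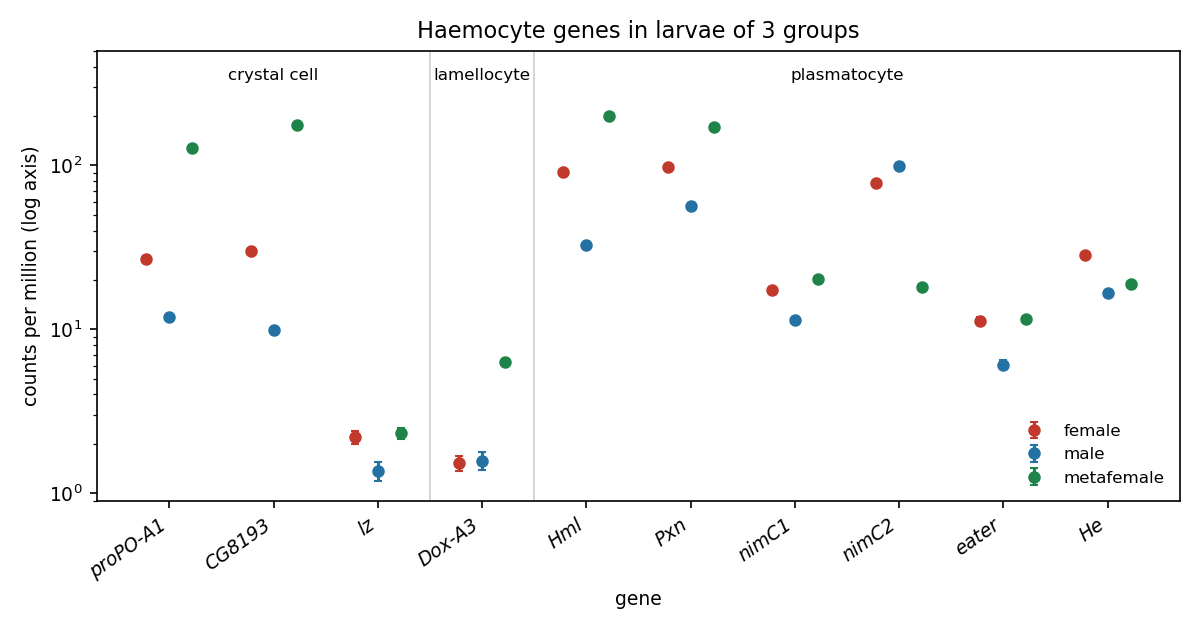
Level of each haemocyte gene (CPM, log axis) in females, males and metafemales, 1 value per group, with 95% counting intervals. The prophenoloxidase genes proPO-A1 and CG8193 are highest in metafemales (128 and 177) and lowest in males (11.9 and 9.85), while nimC2 is lowest in metafemales (18.2).

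The scale of the metafemale values matters for the size of these differences. Median-of-ratios scaling would raise every metafemale to female ratio by 0.41 (log2), and scaling on autosomal genes by 0.46, while males to females would move by -0.04 and 0.01. With median-of-ratios scaling, 8.91% of all genes were higher and 4.38% lower in metafemales than in females. With autosomal scaling these shares were 9.5% and 4.15%. For males against females they were 15.1% and 2.02% with the first and 15.3% and 1.9% with the second, and the members' count did not move. No member changed sign under either scaling. Pxn joined the higher genes under both, which gave 5 higher and 1 lower.

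Of the 10 genes, CG8193 had the largest fold difference in each comparison. Its level stood at 29.8 CPM in females (interval 29.1 to 30.6), 9.85 in males (9.39 to 10.3) and 177 in metafemales (175 to 179). It was 5.93-fold higher in metafemales than in females (5.78 to 6.09) and 3.03-fold lower in males than in females (2.87 to 3.2). In metafemales it was 18-fold above males (17.1 to 18.9). By log2 difference between metafemales and females it was number 45 from the top of 10942 genes.

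proPO-A1 followed the same order. It stood at 26.8 CPM in females, 11.9 in males and 128 in metafemales. Its metafemale value was 4.77-fold above that of females (4.64 to 4.91), and the male value 2.25-fold below it (2.14 to 2.37). Metafemales and males differed 10.7-fold (10.3 to 11.2). Relative to the median of all genes, the log2 difference between metafemales and females was 2.44 for proPO-A1 and 2.75 for CG8193. The ratio of CG8193 to proPO-A1 counts, which no scaling can move, was 1.11 in females (1.07 to 1.15), 0.827 in males (0.775 to 0.883) and 1.38 in metafemales (1.36 to 1.4). The balance of both enzymes thus differed between the groups by more than counting error, towards CG8193 in metafemales.

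lz, which lies upstream of both enzymes in crystal cell development, did not share this pattern. It is the only X-linked gene of the 10. It had 2.19 CPM in females (2 to 2.39), 1.36 in males (1.19 to 1.55) and 2.32 in metafemales (2.14 to 2.51). The female and metafemale intervals overlap, and the ratio of metafemales to females was 1.06 (0.939 to 1.19). The male value was 1.61-fold below the female one (1.38 to 1.89), within the 2-fold limit. For each lz count there were 12.2 proPO-A1 counts in females (11.2 to 13.5), 8.78 in males (7.65 to 10.1) and 55.2 in metafemales (51 to 59.9).

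Of 3 other genes listed as crystal cell markers, none passed 2-fold in metafemales against females. CG17109 came nearest, at 16.4 CPM in females, 5.37 in males and 32.7 in metafemales, and 0.95 on the log2 scale. It passed 2-fold in males against females (-1.45) and, with either other scaling, in metafemales too. CG10467 had 25.3, 15.6 and 27.2 CPM. peb (pebbled, a zinc finger transcription factor expressed in crystal cells and also in other tissues) had 24.2, 18.6 and 22.3 CPM. Over the 6 crystal cell genes, 2 were higher and 4 within 2-fold in metafemales against females, with a median of 0.52. In males against females 3 were lower and 3 within, with a median of -0.89. The summed level was 125 CPM in females, 62.7 in males and 390 in metafemales, and proPO-A1 and CG8193 made up most of the last.

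Dox-A3 encodes the prophenoloxidase of lamellocytes. It had 1.52 CPM in females (1.36 to 1.69), 1.58 in males (1.39 to 1.78) and 6.27 in metafemales (5.98 to 6.58). Metafemales were 4.13-fold above females (3.67 to 4.65) and 3.98-fold above males (3.49 to 4.54), while the ratio of males to females was 1.04 (0.881 to 1.22). Unlike the crystal cell enzymes, it therefore had no lower male value beyond counting error. Per CG8193 count there were 0.0509 Dox-A3 counts in females, but 0.16 in males and 0.0354 in metafemales.

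A list of 8 lamellocyte genes had 2 higher, 0 lower and 6 within 2-fold in metafemales against females, with a median of 0.25, and 1 of the higher genes is Dox-A3. The other was alphaPS4, an integrin alpha subunit, at 2.39 CPM in females, 1.06 in males and 16 in metafemales (6.7-fold above females, 6.12 to 7.34). Nearest to 0 were CG6579 (atilla, the lamellocyte surface antigen), with 25.4, 25.1 and 26.6 CPM, and cher (filamin), with 501, 469 and 480 CPM. atilla and cher are also expressed outside haemocytes. All 8 were within 2-fold between males and females on value + 1 CPM, although alphaPS4 was 2.25-fold lower in males on the values themselves.

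**Figure D2:**
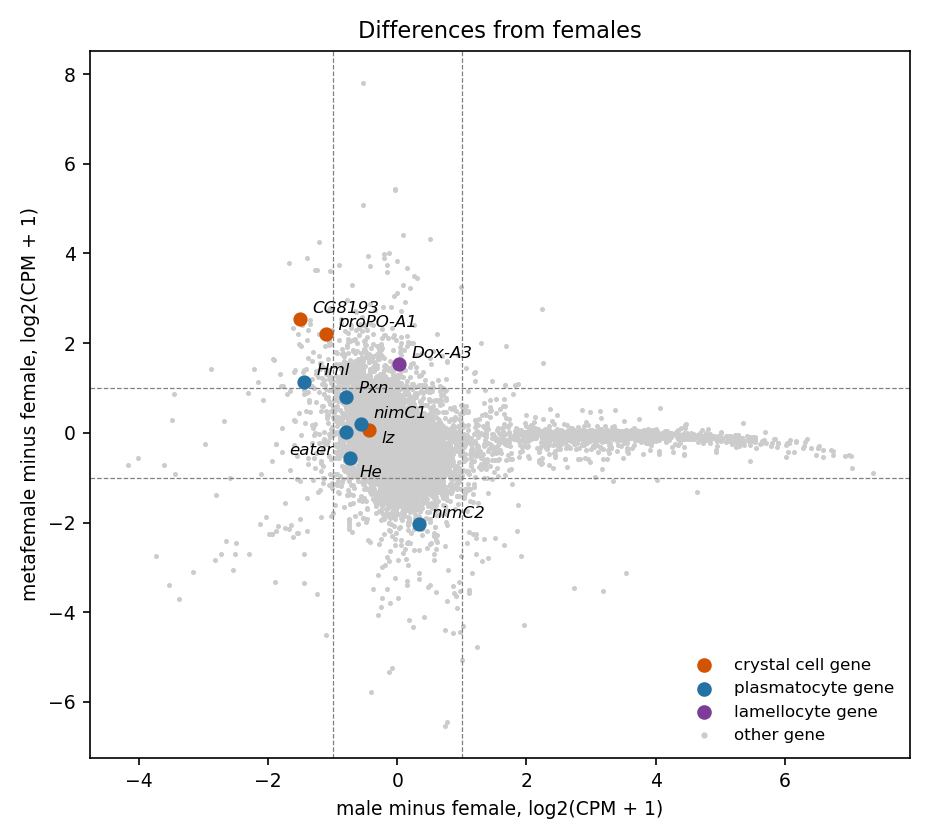
Log2 difference from females in males (x axis) and in metafemales (y axis), both on CPM + 1, for 10942 genes (grey) and the 10 haemocyte genes (coloured by cell type); both axes share the female values and dashed lines mark 2-fold. CG8193, proPO-A1 and Hml lie at upper left (lower in males, higher in metafemales), Dox-A3 is higher in metafemales alone (1.53), and nimC2 lies at 0.34 and -2.04.

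The plasmatocyte genes did not share 1 pattern. Hml stood at 90.9 CPM in females (89.6 to 92.1), 32.7 in males (31.9 to 33.6) and 201 in metafemales (199 to 203). Metafemales were 2.21-fold above females (2.18 to 2.25) and males 2.78-fold below them (2.69 to 2.86). Of the 6 plasmatocyte members, Hml was the only higher one in metafemales and the only lower one in males.

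Pxn had the same order with smaller differences. Its values were 97.8 CPM in females, 56.2 in males and 171 in metafemales. Its metafemale value was 1.75-fold above the female one (1.73 to 1.78), and the male value 1.74-fold below it (1.7 to 1.78). Hml had 0.929 counts per Pxn count in females (0.911 to 0.947), 0.583 in males (0.564 to 0.602) and 1.17 in metafemales (1.16 to 1.19).

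The phagocytosis receptors were close between females and metafemales. eater, which binds bacteria, had 11.3 CPM in females (10.9 to 11.8), 6.07 in males (5.7 to 6.45) and 11.5 in metafemales (11.1 to 11.9). Its ratio of metafemales to females was 1.02 (0.964 to 1.07). nimC1, whose product is the plasmatocyte antigen P1, had 17.4, 11.4 and 20.2 CPM, a ratio of 1.16 (1.11 to 1.2). Both were lower in males but within 2-fold, eater by 1.87-fold (1.74 to 2.01) and nimC1 by 1.53-fold (1.45 to 1.61). The count ratio of nimC1 to eater differed less between groups than the other ratios given, apart from nimC2 to rk, at 1.54 in females (1.46 to 1.62), 1.88 in males (1.74 to 2.03) and 1.75 in metafemales (1.67 to 1.83).

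He had 28.5 CPM in females (27.8 to 29.2), 16.7 in males (16.1 to 17.3) and 18.9 in metafemales (18.4 to 19.5). It was 1.5-fold lower in metafemales than in females (1.45 to 1.56) and 1.7-fold lower in males (1.63 to 1.78), both within 2-fold. Relative to the median of all genes its log2 difference in metafemales was -0.34. It was -0.17 with median-of-ratios scaling and -0.12 with autosomal scaling. Set against He, Hml counts went from 3.19 in females (3.1 to 3.28) to 1.96 in males (1.87 to 2.05) and 10.6 in metafemales (10.3 to 10.9). Hml and He therefore gave opposite orders of females and metafemales, for He by a small difference that shrank with the other scalings.

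A list of 15 plasmatocyte genes holds these 6 members, and 12 of the 15 passed the filter on low levels (a mean of 1 CPM). The 6 others that passed had 1 higher, 0 lower and 5 within 2-fold in metafemales against females under each of the 3 scalings, with a median of -0.07 as deposited. Among those within 2-fold is gcm, which passed only through males (7.6 CPM). It had 0.325 CPM in females and 0.189 in metafemales. All 12 together had 2 higher and 1 lower (3 and 1 with either other scaling), with a median of 0.02. The higher gene outside the members was Sr-CI, a scavenger receptor of haemocytes, at 18.9 CPM in females, 7.91 in males and 41.6 in metafemales (2.2-fold, 2.12 to 2.28). Pvr, the receptor tyrosine kinase that supports haemocyte survival and migration, had 61.2, 46.1 and 62.2 CPM. The 3 genes left out, nimC4, Sr-CII and gcm2, had at most 0.474 CPM in any group. The summed level of all 15 genes was 555 CPM in females, 414 in males and 666 in metafemales.

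nimC2 was the only member lower by 2-fold in metafemales. It had 78 CPM in females (76.9 to 79.2), 98.8 in males and 18.2 in metafemales (17.7 to 18.7). Metafemales were 4.29-fold below females (4.16 to 4.43) and 5.44-fold below males (5.26 to 5.61), and males were 1.27-fold above females (1.24 to 1.29). It was the only member above females in males apart from Dox-A3, whose male interval included the female value. The count ratio of nimC2 to its neighbour nimC1 was 4.47 in females (4.32 to 4.63), 8.65 in males (8.25 to 9.08) and 0.902 in metafemales (0.867 to 0.938).

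The nimC2 gene overlaps rk (rickets, the receptor for the tanning hormone bursicon), which lies on the opposite strand. In the Release 6 annotation they share 527 exonic bases, 18.7% of those of nimC2 and 9.78% of those of rk. rk had 9.36 CPM in females, 11.4 in males and 2.18 in metafemales. Counts of nimC2 per rk count were 8.33 in females (7.97 to 8.72), 8.69 in males (8.29 to 9.12) and 8.34 in metafemales (7.66 to 9.11), so that the intervals of all 3 groups overlap. The use of strand in counting is not given in the sources used here, and without it reads in the shared bases cannot be told apart. If every rk count is taken off, nimC2 would have 68.7, 87.4 and 16 CPM. With nearly the same ratio to rk in females and metafemales, this could not move the 4.29-fold difference between them. It is thus no check on the overlap. The part of nimC2 reads in the rk values was not tested.

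Smaller overlaps touch other members. He shares 78 exonic bases with nimB5 on the opposite strand, 11.6% of its own. nimB5 stood at 18.9, 14.1 and 13.2 CPM in females, males and metafemales. If every nimB5 count is taken off, He would have 9.57, 2.59 and 5.78 CPM. The 1.7-fold lower male value would become a 3.69-fold one, and metafemales would be 1.66-fold below females. This is an extreme case, since the shared bases are 5.59% of those of nimB5. The part of nimB5 reads in the He values was not tested. Pxn shares 82 bases (1.38%) with CG16986 on the opposite strand and 151 (2.54%) with a long noncoding RNA on its own strand. proPO-A1 overlaps the span of elk without a shared exonic base, and for the other members no overlapping gene was found in that annotation.

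**Figure D3:**
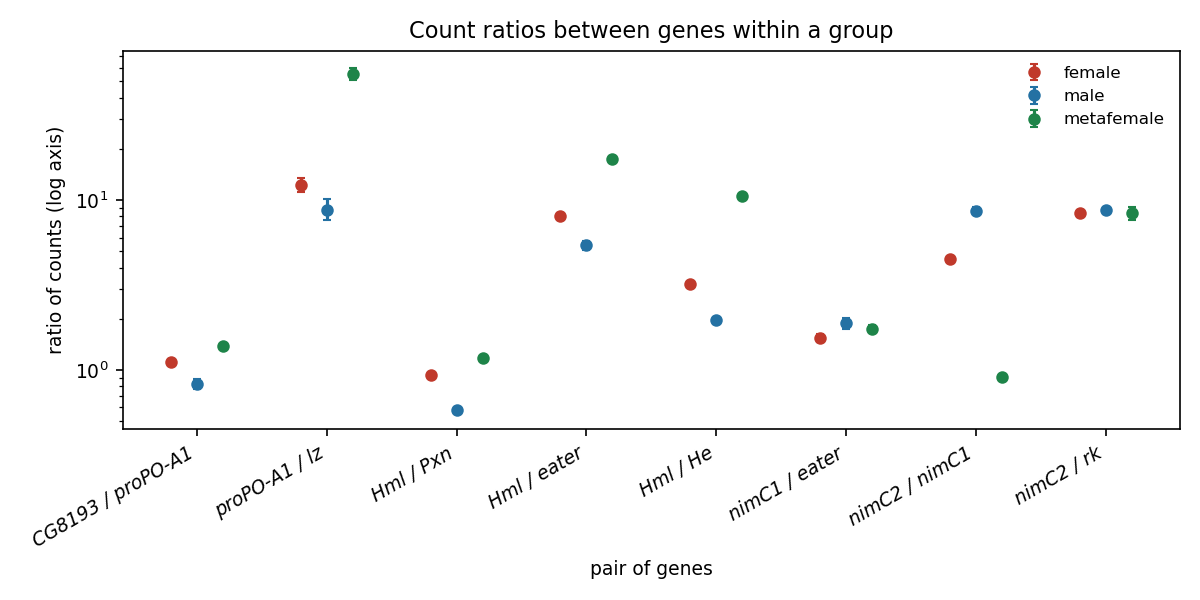
Ratio of counts between genes within each group (log axis) with 95% counting intervals; a scaling factor cannot move these ratios. The ratio of proPO-A1 to lz is 55.2 in metafemales against 12.2 in females, nimC2 to nimC1 is 0.902 against 4.47, and nimC2 to its overlapping gene rk is 8.33 in females, 8.69 in males and 8.34 in metafemales.

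nimC1, nimC2 and He lie in the Nimrod cluster of arm 2L, a run of genes for proteins with EGF-like NIM repeats and some unrelated genes. The values did not follow 1 direction along the order from nimA to nimC4. In metafemales against females nimA stood at -0.98 (log2), nimB1 at -0.44, nimB2 at 1.11, nimB3 at -0.93, nimB4 at 0.31 and nimB5 at -0.49. He followed at -0.56, nimC1 at 0.20, the cytochrome P450 gene Cyp28a5 at 1.72, nimC2 at -2.04 and rk at -1.71. Beyond rk, CG42692 stood at -0.06, bgm at 1.31, nimC3 at 0.52, CG4500 at -1.15, CG18095 at -0.00 and nAcRalpha-34E at 0.14. CG42692 passed the filter only through males (11.6 CPM). With 0.0935 CPM in females and 0.0487 in metafemales, its difference is set mostly by the added 1 CPM. nimA had 2.55 CPM in females and 0.804 in metafemales, a ratio of 0.315 (0.268 to 0.369). It was thus 3.17-fold lower on the values themselves and stayed within the limit only through the added 1 CPM. Past 2-fold on value + 1 CPM were nimB2, Cyp28a5 and bgm above females and nimC2, rk and CG4500 below. The low value at nimC2 thus did not extend to nimC1 or Cyp28a5 on its other side. nimB2, which encodes a secreted Nimrod protein, had 44.5 CPM in females, 25.2 in males and 97 in metafemales (2.18-fold above females, 2.13 to 2.23).

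Of the 12 Nimrod family genes, including eater and drpr outside the cluster, 11 passed the filter. In metafemales against females nimB2 was higher, the member nimC2 lower and 9 within 2-fold, and the median was -0.38 (0.03 and 0.07 under the other scalings). Those 9 include nimA, 3.17-fold lower without the added 1 CPM. In males against females all 11 were within 2-fold on value + 1 CPM, with a median of -0.40. nimB4 was nearest to the limit there, at -0.99, and was lower with median-of-ratios scaling. On the values themselves nimB4 was 2.06-fold and nimB1 2.13-fold below females.

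**Figure D4:**
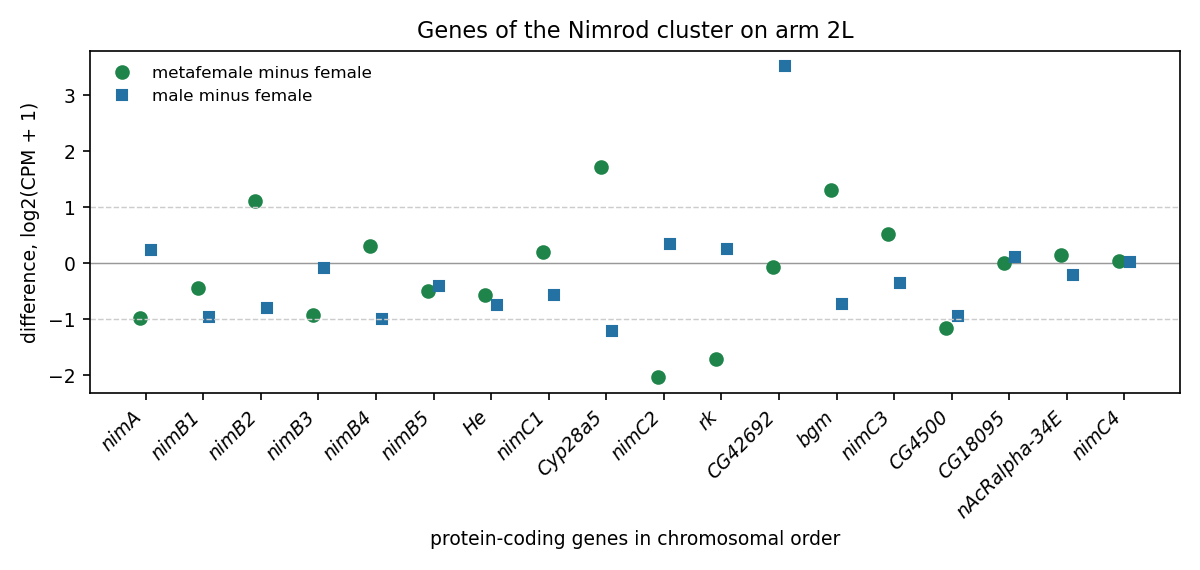
Log2 difference from females (CPM + 1) in metafemales (circles) and males (squares) for the protein-coding genes from nimA to nimC4 on arm 2L, in chromosomal order and not to scale; dashed lines mark 2-fold. nimC2 (-2.04), its overlapping neighbour rk (-1.71) and CG4500 (-1.15) are low in metafemales, and Cyp28a5 (1.72), bgm (1.31) and nimB2 (1.11) are high.

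Set side by side, the crystal cell and plasmatocyte members differed more between metafemales and females than between males and females. The median log2 difference of the 3 crystal cell members was 2.21 in metafemales against females, and that of the 6 plasmatocyte members 0.11, a gap of 2.10. Without He, which all types carry, the gap was 2.02. In males against females the medians were -1.11 and -0.76, a gap of -0.35. In metafemales against males they were 3.32 and 0.80, a gap of 2.52. The crystal cell median is the value of proPO-A1 in each case, and lz lay nearer to the plasmatocyte median in each of the 3 comparisons. The gap was not shared by the listed genes outside the members. In metafemales against females, 3 other crystal cell genes had a median of 0.10 and 6 other plasmatocyte genes -0.07. Over the whole lists the medians were 0.52 and 0.02. Per Hml count there were 0.295 proPO-A1 counts in females (0.287 to 0.304), 0.364 in males (0.346 to 0.383) and 0.636 in metafemales (0.628 to 0.645). Counts of CG8193 per Hml count were 0.328, 0.301 and 0.88.

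In metafemales against males, 5 of 10 members were higher, where 8.61% of all genes were, and 1 was lower, where 28.6% of all genes were. With either other scaling 7 were higher and 1 lower, with nimC1 and eater added, where 14.8% and 20.7% of all genes were with median-of-ratios scaling and 15% and 20.9% with autosomal scaling. Pxn passed the limit here, 3.05-fold above males (2.99 to 3.12). Hml was 6.15-fold above males (5.98 to 6.32). The median over the 10 members was 1.16 and that of all genes -0.40. These values use the same libraries as the other comparisons and are no separate evidence.

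Levels of different genes can be set beside each other only per length, here as CPM per kb of the longest annotated transcript. In females He was highest, at 42.3, followed by nimC2 (27.7), Pxn (18.8), CG8193 (13.1), proPO-A1 (11.5), Hml (7.73), nimC1 (5.82) and eater (3.43). Dox-A3 (0.681) and lz (0.631) came last, and their intervals overlap. Taking off all nimB5 counts is an extreme case for He, since the shared bases are 5.59% of those of nimB5. He would then have 14.2, below nimC2 (24.4 less rk counts) and Pxn (17.5 less CG16986 counts). In males the order began with nimC2 (35), He (24.8) and Pxn (10.8), with proPO-A1 (5.09) and CG8193 (4.32) after them, and He would there have 3.85, below both. In metafemales CG8193 (77.7) and proPO-A1 (54.8) were first, before Pxn (33), He (28.1) and Hml (17.1), and He would have 8.59, below Hml. nimC1 (6.72) and nimC2 (6.45) had overlapping intervals there, and all other neighbours in these orders as deposited were apart by more than counting error.

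Some genes were listed with more than 1 transcript, and their values share most reads. The 2 nimC2 transcripts had 78 and 76.5 CPM in females and gave ratios of metafemales to females of 0.233 and 0.232. The 2 lz transcripts gave 1.06 and 1.04. Of 5 Pxn transcripts, 4 lay within 0.3% of each other in females and gave 1.75. The fifth had 17.4 CPM in females, 8.63 in males and 31.1 in metafemales, a ratio of 1.79 for metafemales and 0.497 for males, where the others gave 0.574.

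The genes nearest to 4 members in both differences from females were found by Euclidean distance on the log2 scale, over 3 groups. Over so few groups nearness is a weak likeness, and nothing on shared function or control is drawn from it. Nearest to CG8193 were ng2 (0.14), Lsp1alpha (0.16), CG1208 (0.18), ng1 (0.23) and CG9498 (0.26). Nearest to proPO-A1 were CG3523 (fatty acid synthase, 0.08), Gpo-1 (glycerol-3-phosphate oxidase, 0.08), Cpr11A (0.10), CG32483 (0.13) and CG9090 (0.18). Hml was nearest to CG10910 (0.05), Cyp4d2 (0.15), CG6048 (0.15), CG17109 (0.19) and CG32633 (0.21). nimC2 had 27 genes within 0.25, led by CG8483 (0.06), Gld (glucose dehydrogenase, 0.06), CG34350 (0.07), and CG11089 and CG31381, which share the same values (0.12).

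Among regulators of haemocyte and lymph gland development few passed 2-fold, as among all genes, of which 4.81% were higher and 10.9% lower in metafemales than in females. Of 21 genes 20 passed the filter, and in metafemales against females 0 were higher, 1 lower and 19 within, and the median was -0.15 (0.04 and 0.08 under the other scalings). The lower gene was Pvf2, a ligand of Pvr, at 9.48 CPM in females, 6.78 in males and 3.35 in metafemales (-1.27), and it was within 2-fold with either other scaling. Stat92E, the transcription factor of the JAK/STAT pathway, had 109, 94.6 and 109 CPM. In males against females 1 gene was higher and 1 lower. They were gcm (glial cells missing, a transcription factor that promotes plasmatocyte fate in the embryo), at 0.325 and 7.6 CPM, and upd3, a JAK/STAT ligand, at 2.68 and 0.258 CPM. gcm had 0.189 CPM in metafemales and passed the filter only through its male value. Its higher male value was thus favoured by the filter. Both gcm and upd3 were named after their values were seen.

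Genes of the melanisation and Toll cascades went both ways. The list holds proteases, protease homologues, serpins and the recognition proteins PGRP-SA (-0.87) and PGRP-LE (0.23). Of 14 genes that passed the filter, 3 were higher, 3 lower and 8 within 2-fold in metafemales against females, and with both other scalings 3 were higher and 0 lower. The higher genes were the protease homologue spheroide (18 CPM in females, 10.8 in males, 67 in metafemales), the protease genes psh (5.89, 3.26 and 13.3) and, right at the limit, SPE (5.34, 2.45 and 11.7). Among the lower ones, Sp7, a protease that activates prophenoloxidase, had 29.6, 31.2 and 11.2 CPM. Spn28D, a serpin that inhibits phenoloxidase activation, had 32.3, 18.6 and 11.8 CPM, and spirit, a protease of the Toll cascade, had 77.2, 46.2 and 29.2. Hayan (CG6361), a protease that acts before prophenoloxidase, was nearest to 0, at 25.4, 13.3 and 26.4 CPM. All 14 were within 2-fold between males and females on value + 1 CPM, although SPE was 2.18-fold lower in males on the values themselves.

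Enzymes of melanin formation and cuticle tanning were mostly lower in metafemales, opposite to the prophenoloxidases. Of 11 genes 10 passed the filter. In metafemales against females 6 were lower, 1 higher and 3 within 2-fold, with a median of -1.83, and 6 were lower and 3 higher with the other scalings. The gene left out, y (yellow), had 0.219, 0.0508 and 1.18 CPM in females, males and metafemales. Within 2-fold but above females were t (4, 2.33 and 7.94 CPM) and Dat (11.6, 12.6 and 21.9). ple, the tyrosine hydroxylase gene, had 143 CPM in females, 556 in males and 6.37 in metafemales (-4.29 in metafemales). Ddc, dopa decarboxylase, had 163, 151 and 10.8 CPM (-3.79). e (ebony), which joins dopamine to beta-alanine, had 23, 218 and 1.1 CPM (-3.52). b (black), which makes beta-alanine, had 39.5, 56.3 and 2.85 CPM (-3.39). The higher gene was yellow-f2, a dopachrome conversion enzyme, at 1.91, 0.581 and 7.45 CPM, while its paralogue yellow-f had 50.9, 33.3 and 17.5. Nearest to 0 was CG42345 (laccase 2, the oxidase of cuticle tanning), at 21.8, 21.2 and 26.4 CPM. These enzymes also act in the epidermis, where tanning takes place.

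**Figure D5:**
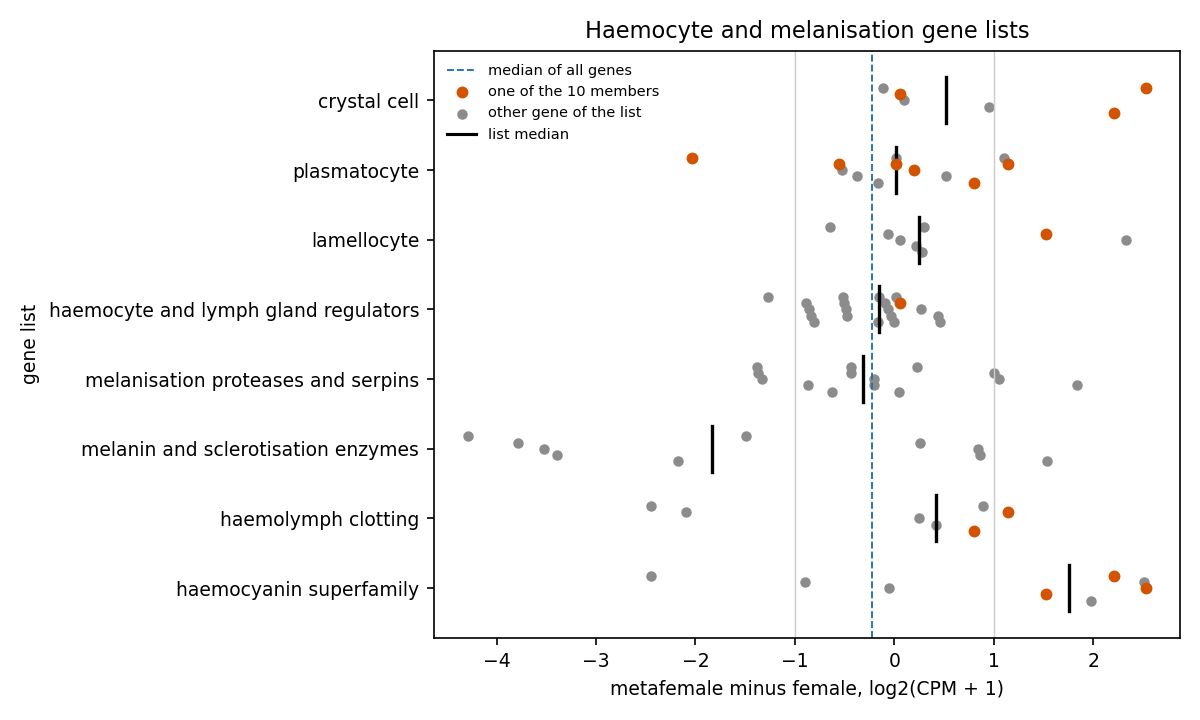
Log2 difference between metafemales and females (CPM + 1) for each gene past the filter in 8 lists; orange points are members, black bars list medians, the dashed line the median of all genes (-0.22) and grey lines 2-fold. The melanin and sclerotisation enzymes, which hold no member, have their median at -1.83, while the 1.76 of the haemocyanin superfamily includes 3 members and is -0.05 without them.

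Clotting genes and relatives of the prophenoloxidases completed the lists. Of 7 haemolymph clotting genes, which include Hml and Pxn, 1 was higher, 2 lower and 4 within 2-fold in metafemales against females, with a median of 0.42 (3 higher and 2 lower with the other scalings). The higher gene is Hml itself, and the 5 others had 0 higher and 2 lower (1 and 2 with the other scalings), with a median of 0.25. Tg, the transglutaminase that crosslinks the clot, had 7 CPM in females, 4.19 in males and 13.8 in metafemales (0.89). fon (fondue) had 378, 262 and 508 CPM, and mfas had 112, 82.2 and 133. The lower genes were Fbp1 and Eig71Ee, at 6045 and 945 CPM in females and 1108 and 220 in metafemales.

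Prophenoloxidases share the haemocyanin fold with the larval serum proteins, which the fat body secretes as stores of amino acids. Of 8 genes of this superfamily, 3 are the prophenoloxidase members. The 5 relatives had 2 higher, 1 lower and 2 within 2-fold in metafemales against females, with a median of -0.05. The lower relative was Fbp1 (-2.45), already counted among the clotting genes, while Lsp2 stayed within 2-fold (-0.90). All 8 together had a median of 1.76, which lies between the member Dox-A3 (1.53) and the relative Lsp1beta (1.98). In males against females 2 of the 5 relatives were lower and 3 within. Lsp1alpha had 474 CPM in females, 185 in males and 2700 in metafemales (5.69-fold above females), and Lsp1beta had 4342, 1505 and 17148 (3.95-fold). Lsp1gamma had 5932, 5876 and 5725, and Lsp2 had 9444, 9876 and 5064. Reads may be shared between the Lsp1 copies, so their single values are uncertain.

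Markers of other tissues differed between the same groups. Of all 10942 genes, 4.81% were higher and 10.9% lower in metafemales than in females. Of 10 larval muscle genes, 7 were higher and 0 lower in metafemales against females (10 and 0 with the other scalings), and their summed level was 6602 CPM in females, 4604 in males and 21646 in metafemales. Of 9 fat body genes 4 were higher and 1 lower (5 and 1 with the other scalings), with sums of 30015, 27846 and 36837 CPM. The lower fat body gene was again Fbp1, and Lsp1alpha and Lsp1beta were among the higher ones. Of 6 epidermis and cuticle genes that passed the filter, 3 were lower and 0 higher (1 higher with the other scalings), and the sums over all 8 were 6763, 12642 and 4603 CPM. Of 9 salivary gland genes 5 were lower and 3 higher, with sums of 10638, 15304 and 2797 CPM. All 6 neuron genes were within 2-fold (95.8, 75.2 and 83.8 CPM in sum). No gene of these lists was at 0 in any group, and the part of such tissue differences in the haemocyte values was not tested.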

How the data were processed

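Total RNA of whole larvae was sequenced from TruSeq libraries. The submitters' processing notes name TopHat, HTSeq and the dm3 build; for versions, annotation and strand nothing is given in the sources used here. The authors deposited each value as a fraction of a group's transcript counts, in tables of 3698 X-linked and 19040 autosomal transcripts, with 1 column per group that sums to 1 over both tables. These fractions were multiplied by 1000000 (CPM).

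All values below 0.05 CPM (1749, 981 and 2170 transcripts in females, males and metafemales) were sums of 3 step sizes per column, within a relative tolerance of 1e-05. Columns were therefore read as means over 3 libraries, which gave the library totals and effective depths of 226, 169 and 269 M for exact 95% intervals (Poisson for levels, binomial for ratios). At these depths 3 counts give 0.0133, 0.0178 and 0.0112 CPM.

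The transcript with the highest mean stood for its gene, genes below a mean of 1 CPM were left out, and log2 differences were taken on value + 1 CPM. Fold calls were at 2-fold. The step recovery and intervals were tested on simulated data. Those data were drawn with counting error alone, from the inferred library totals. They are therefore no check on variation among larvae or on reads that are not independent molecules. Names, arms, gene order, lengths and overlaps come from the supplied Release 6 annotations, which are of another build than dm3, so no coordinates are given. Of 22738 transcripts 21508 matched by accession. All members are named, and in each other list up to 4 genes past 2-fold in each direction and those nearest to 0. The lists of other tissues are an exception and are given as counts and sums, without genes named by this rule. Members and lists were chosen with earlier results of these data known. One name of the melanisation and Toll list was not matched. Python 3.11.15, pandas 2.3.3, NumPy 2.4.6 and SciPy 1.17.1 were used.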

Additional observations from a re-analysis of the deposited data

How the results depend on the processing

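Each of 30 member differences (10 genes in 3 comparisons) was recomputed with median-of-ratios scaling, autosomal scaling, 0.1 CPM added in place of 1, sums over transcripts and, chosen after seeing the data, relative to the median of all genes. All 30 kept their sign. Of them 14 were past 2-fold under all these settings, 13 under none and 3 under some: Pxn in metafemales against females, and nimC1 and eater in metafemales against males. Counts of members past 2-fold each stayed within 1.5 times the count as deposited (5, 3 and 6): from 4 to 6 in metafemales against females, 3 throughout in males against females, and 5 to 8 in metafemales against males, also with a mean of at least 10 CPM, with no filter, or with only the 9 genes matched by name. Over these settings 12.3% to 21.1%, 7.65% to 18.7% and 30.7% to 41.8% of all genes were past 2-fold in the 3 comparisons. The gap between crystal cell and plasmatocyte medians changed with a mean of at least 10 CPM, which leaves out lz and eater. It went to 2.17 in metafemales against females, -0.57 in males against females and 2.91 in metafemales against males. In metafemales against females it also moved, from 2.10 to 2.02, without nimC2, Pxn and He, which share exonic bases with other genes. Leaving out He alone gave 2.02 as well. Both of these settings were chosen after seeing the data. All these moves come with a change of the gene set, for which counting error is no measure. In the lists, other scalings took lower genes of the melanisation and Toll cascades from 3 to 0, and higher melanin enzymes and higher clotting genes from 1 to 3 each. No paired analysis was possible because each group has 1 combined column, and for the same reason no repeat could be left out. Depth limits lz and Dox-A3 most, at 1.36 to 6.27 CPM.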
